A study of Mus musculus with 4 samples.

Results

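The genes described here mark T cells and natural killer (NK) cells, the lymphocytes that recognise infected or altered cells and either kill them or direct other immune cells. They were chosen by name as a set of 33 genes, and every probe set whose gene symbol is a member of that set was taken. Of the 33 genes, 30 had a named probe set, with 42 probe sets among the 22690 on the array and 30 genes among 12394 named ones. Signals of Lck, Il2rg and Tcf7 are not analysed here, and these genes enter only the promoter sequences.

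The samples came from a study of female, nulliparous C57BL/6 mice that lacked Sca-1, a small surface protein used to mark stem and progenitor cells, and of their age-matched wild-type littermates. The 4 groups were mammary tumors of Sca-1 KO mice, mammary tumors of wild-type mice, mammary gland of Sca-1 KO mice and mammary gland of wild-type mice. Tumors had been induced by 15 mg of the progestin MP (Depo-Provera) under the skin and then 4 weekly doses of 1 mg of the carcinogen DMBA by gavage, and the age at which tumors were taken is not given in the labels. The glands came from mice of 6 weeks whose own group labels name no carcinogen, although the deposited treatment text is the same for all samples. Each group was 1 array of RNA pooled from 5 mice, so a difference below lies between 2 arrays, no test was possible and the precision is limited by the number of arrays. Age, treatment and tumor growth cannot be told apart in a comparison of tumor with gland. The knockout was not checked by the Sca-1 gene itself, whose level is not analysed here.

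A T cell detects antigen through its receptor, whose CD3 and zeta chains carry the signal into the cell, while the coreceptors CD4 and CD8 bind the molecules that present the antigen. The kinases Lck and Zap70 and the adaptor Lat then relay the signal, costimulatory and inhibitory receptors adjust it, and cytokine receptors sustain the cell. NK cells lack the T cell receptor but share with CD8 T cells the granule proteins that kill target cells. In C57BL/6 mice many T cells themselves carry Sca-1, and the normal mammary fat pad holds scattered T cells as well as a lymph node.

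Values are linear signals, which had been scaled so that each array had the same trimmed mean of 500. Differences are given on the scale log2(signal + 27.3), which understates those of dim genes, and a gene counted as higher or lower only where it differed at least 2-fold. Median signals over all probe sets were 153 and 151 in the knockout and wild-type tumor and 199 and 167 in the knockout and wild-type gland. The lower quartile of the knockout gland, 44.2, stood above those of the knockout tumor, the wild-type tumor and the wild-type gland, which were 17.9, 18.5 and 34.6. The ratio of 3' to 5' control probe sets of beta-actin, which rises as RNA degrades, was 1.29, 1.23, 1.61 and 2.35 in the knockout tumor, wild-type tumor, knockout gland and wild-type gland, and that of Gapdh was 0.876, 0.768, 0.988 and 1.72. Pairs of probe sets that measure 1 gene gave a gauge of noise over 2375 genes, with a mean signal of at least the median for both probe sets. It was the robust SD of their disagreement divided by the square root of 2, as a spread for a single probe set. On the log2 scale it was 0.18 for the genotype difference in tumor and 0.21 in gland, while for tumor minus gland it was 0.46 in the knockout and 0.50 in the wild type. That gauge covers neither differences between mice nor those between pools, and only 7 members reached that mean signal.

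Nearly all of these genes were brightest in the knockout gland and dimmest in the tumors. The knockout gland had the highest signal of the 4 arrays for 28 of 30 genes, whereas it had the highest signal for 33% of all named genes. For 28 of 30 genes both glands lay above both tumors, an order found in 46.6% of all named genes. The exceptions were Gzmb, brightest in the wild-type tumor, and Ctla4, whose wild-type gland signal lay below that of the knockout tumor. Tbx21 was the only member brightest in the wild-type gland. The summed signal of the 30 genes was 2602 in the knockout tumor and 2453 in the wild-type tumor, against 9973 in the knockout gland and 6516 in the wild-type gland. In RNA of whole tissue, fewer cells of a type and less RNA per cell cannot be told apart.

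**Figure D1:**
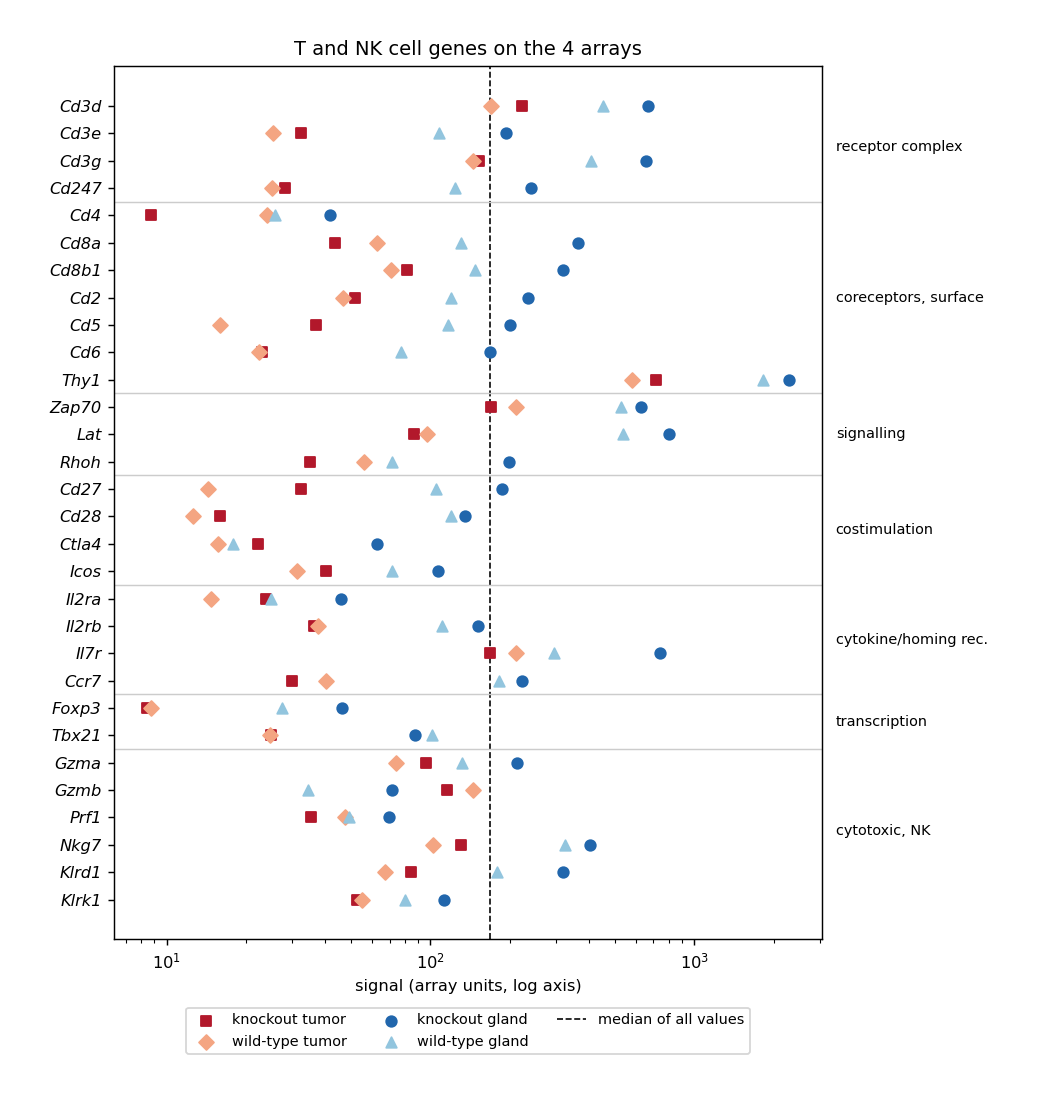
Signal of the 30 measured genes on each of the 4 arrays, on a log axis in array units and grouped by role, with 1 symbol per array and a dashed line at the median of all values (168). Blue gland symbols lie to the right of the red and orange tumor symbols for 28 of 30 genes, with Gzmb in the opposite order.

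Many of the genes were dim in tumor. With the median of all values, 168, as the mark, 3 of the 30 genes reached it in the knockout tumor, 4 in the wild-type tumor, 19 in the knockout gland and 9 in the wild-type gland. Over all named genes these shares were 56.6%, 56.1%, 60.8% and 58.4%. Both arrays of a comparison lay below the mark for 11 genes between the glands, 26 between the tumors, 11 between tumor and gland in the knockout and 21 in the wild type.

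Between the glands, the knockout array was higher by a small amount for almost the whole set. The log2 difference of knockout minus wild type was positive for 29 of 30 genes, with a median of 0.57 (quartiles 0.37 and 0.80), or 1.49-fold. Cd8a, Il7r and Rhoh were higher and no member was lower, against 1.19% of all named genes higher and 0.282% lower. Over all named genes the median was 0.04 and 55.8% of differences were positive. Low signals in general were raised in the knockout gland, so dim genes leaned the same way. Among the 1338 genes whose mean signal lay in the members' own quartile range (71.3 to 160), the median was 0.18, 71.3% were positive and 3.29% were higher. At a threshold of 1.5-fold, 15 of 30 members were higher, against 6.80% of all named genes and 14.5% of those in that brightness range. The calls of 3 genes depended on the settings, since no gene passed 2-fold with an offset at the median signal. Cd8a had 0.97 when probe sets were averaged, a setting in which 3 genes were still higher because another gene entered. Rhoh had 0.97 with arrays at a common median. That last scaling moved the median of all genes to -0.19 and that of the members to 0.35.

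Between the tumors the genotypes gave no common direction. No member was higher or lower, against 1.85% higher and 1.79% lower among all named genes. The differences were positive for 18 genes and negative for 12, with a median of 0.07 beside 0.01 for all named genes. They reached from -0.51 for Cd4 to 0.57 for Cd5, both dim in tumor. With 26 of 30 genes below 168 on both tumor arrays, small differences in tumor were mostly differences between dim signals.

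**Figure D2:**
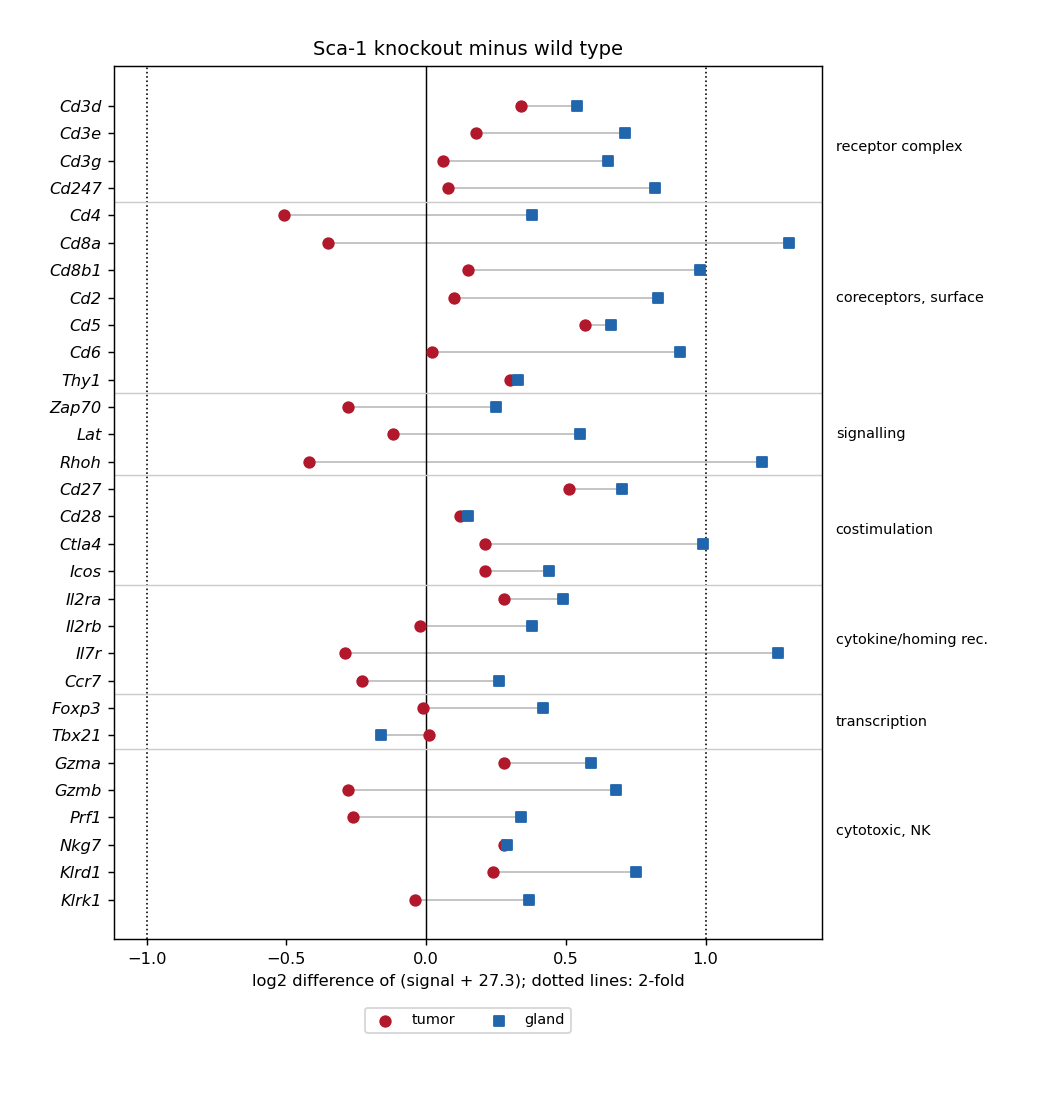
Log2 difference of Sca-1 knockout minus wild type for each gene in tumor (circles) and gland (squares), with dotted lines at 2-fold. The circles run from -0.51 to 0.57, while 29 of 30 squares lie above 0 and those of Cd8a, Il7r and Rhoh pass 2-fold.

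The tumor arrays held less signal of these genes than the glands in both genotypes. In the knockout, 22 of 30 genes were lower in tumor than in gland and none higher, with a median log2 difference of -1.65, or 3.15-fold lower. Of all named genes 18.6% were lower and 9.59% higher there, and of those in the members' brightness range 29.2% were lower. In the wild type, 16 genes were lower and 1, Gzmb, was higher, with a median of -1.08, or 2.12-fold lower. The background in wild type was 15.8% lower and 10.1% higher, with 24.9% lower in the brightness range. Medians of all named genes were -0.17 in the knockout and -0.13 in the wild type, and those of the brightness range were -0.37 and -0.23. The 4 comparisons share arrays pairwise, so the knockout gland with its high signals enters both the gland comparison and the knockout's tumor comparison.

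**Figure D3:**
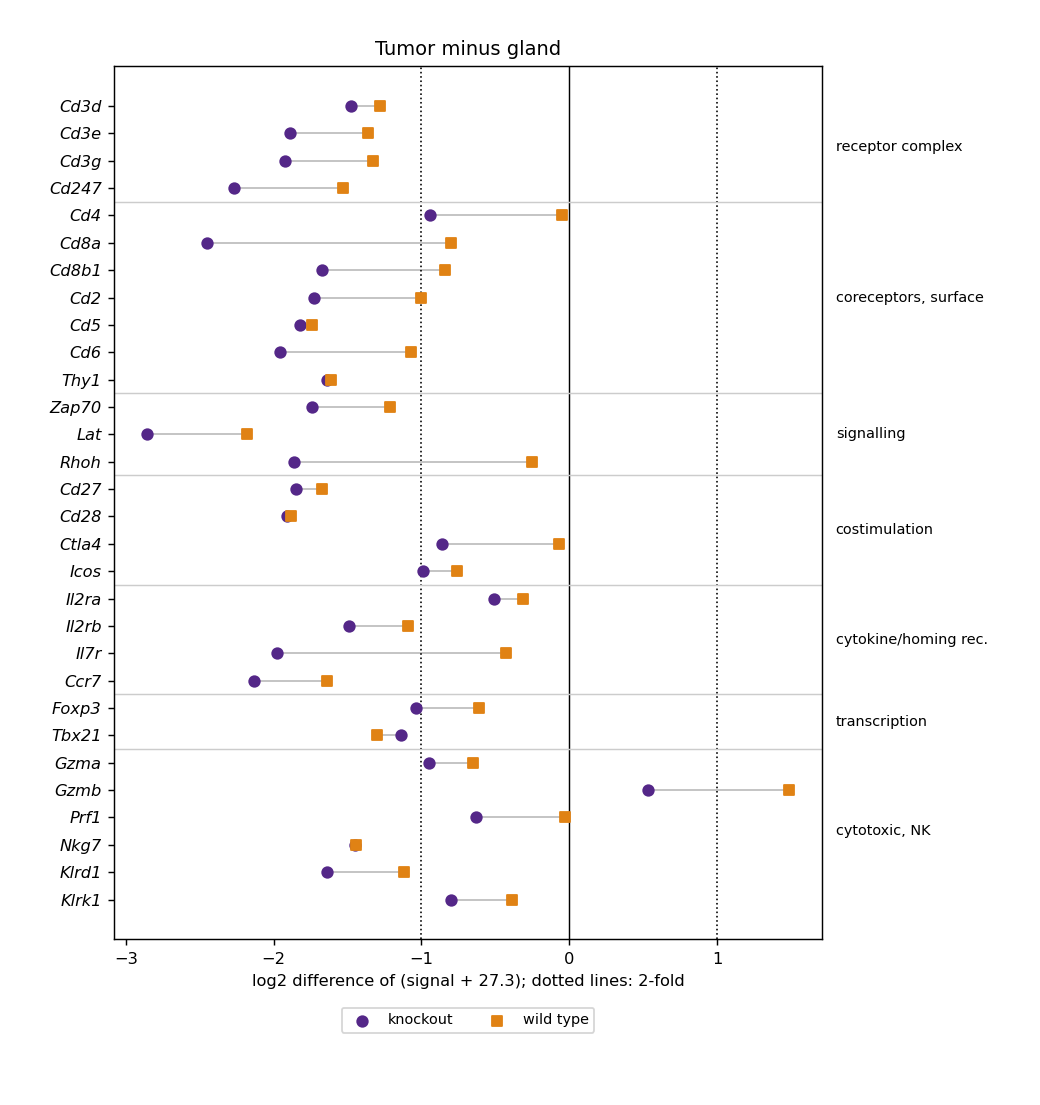
Log2 difference of tumor minus gland for each gene in the knockout (circles) and the wild type (squares), with dotted lines at 2-fold. Medians are -1.65 in the knockout and -1.08 in the wild type, Lat lies lowest in both genotypes, and Gzmb alone lies above 0 in both.

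The genotype difference, taken with its sign, was lower in tumor than in gland for 29 of 30 genes, against 6543 of all 12394 named genes. The difference in tumor minus the difference in gland had a median of -0.52, beside -0.03 over all named genes, and was lowest for Cd8a, at -1.65. Tbx21 was the exception at 0.16, with 0.01 in tumor and -0.16 in gland. In size, the differences of Cd4 and Zap70 were larger in tumor, at -0.51 and -0.28 against 0.38 and 0.25 in gland. With 1 array per group this difference of differences was not tested.

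The chains of the T cell receptor complex were measured by 4 genes. Cd3d, which encodes the delta chain, had signals of 222 and 169 in the knockout and wild-type tumor, and 665 and 450 in the knockout and wild-type gland. Cd3g, for the gamma chain, had 152 and 145 in the tumors, against 654 and 406 in the glands. Cd3e, for the epsilon chain, had 32.2 and 25.4 in the tumors, against 193 and 108 in the glands. All 3 had the same order of arrays, with both glands above both tumors and the knockout above the wild type in each tissue. Cd247, which encodes the zeta chain that carries most of the signalling motifs, had 28.0 and 25.1 in the tumors and 240 and 124 in the glands. Its main probe set had the same order as the CD3 chains. Knockout minus wild type lay between 0.06 (Cd3g) and 0.34 (Cd3d) in tumor and between 0.54 (Cd3d) and 0.82 (Cd247) in gland. All 4 genes were lower in tumor than in gland in both genotypes, by -1.48 to -2.27 in the knockout and -1.28 to -1.53 in the wild type. The summed signal of the complex was 434 in the knockout tumor and 365 in the wild-type tumor, against 1752 and 1087 in the knockout and wild-type gland.

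Of the coreceptor genes, both CD8 chains were brighter in the knockout gland than on any other array. Cd8a, the alpha chain of CD8 on cytotoxic T cells, had signals of 43.5 and 62.9 in the knockout and wild-type tumor, and 361 and 130 in the knockout and wild-type gland. The knockout gland stood apart from the other arrays, 2.47-fold above the wild-type gland (log2 1.30). Cd8b1, the beta chain, had 81.4 and 70.6 in the tumors, against 318 and 148 in the glands, and differed by 0.98 between the glands, just inside 2-fold. A second probe set of Cd8a differed by 0.65 between the glands, with signals of 160 and 92.1 in knockout and wild type. Cd4, the coreceptor of helper T cells, had 8.70 and 24 in the tumors and 41.6 and 25.8 in the glands. All of these Cd4 signals were far below 168, and its second probe set lay between 3.1 and 5.0 on every array, so these probe sets gave little measure of CD4 T cells in either tissue.

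The general T cell surface genes followed the order of the receptor chains. Thy1, also made by some stromal cells, stayed above 168 on every array, with 716 and 578 in the tumors and 2293 and 1824 in the glands. Its difference was nearly the same in both tissues, 0.30 in tumor and 0.33 in gland. Cd2, an adhesion receptor of T and NK cells, had 51.7 and 46.6 in the tumors, against 235 and 120 in the glands. Cd5 and Cd6, related receptors that restrain T cell signalling, gave different pictures in tumor. Cd5 had 37.0 in the knockout tumor and 15.9 in the wild-type tumor, against 201 and 117 in the knockout and wild-type gland. For Cd6 the signals were 23.0 and 22.4 in the tumors and 168 and 77.1 in the glands. In gland both had a positive difference, 0.66 for Cd5 and 0.91 for Cd6.

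Among the signalling genes, Lat was the member with the largest tumor-to-gland difference. Lat encodes the membrane adaptor on which the receptor's signalling complex assembles, and its signals were 86.8 and 97.1 in the knockout and wild-type tumor, against 799 and 536 in the knockout and wild-type gland. It was 7.24-fold lower in tumor in the knockout and 4.53-fold lower in the wild type. Zap70, the kinase that binds the phosphorylated zeta chain, had 169 and 211 in the tumors, against 630 and 526 in the glands. Rhoh, a GTPase of blood cells needed for Zap70 function, had 35.1 and 56.1 in the tumors, against 199 and 71.6 in the glands. For Rhoh the 2 tumors and the wild-type gland lay near each other and the knockout gland stood apart, 2.29-fold above the wild-type gland. All 3 genes had a lower signal in the knockout tumor than in the wild-type tumor, by -0.12 to -0.42.

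Of the 4 costimulatory and inhibitory receptors, 3 had both glands above both tumors and Ctla4 did not, and 3 of 4 were below 168 on both gland arrays. Cd27, a costimulatory receptor of the TNF receptor family, had 32.2 in the knockout tumor and 14.4 in the wild-type tumor, against 187 and 105 in the knockout and wild-type gland. Cd28, the main costimulatory receptor of naive T cells, had 16.0 and 12.6 in the tumors, against 135 and 119 in the glands. Icos, a related receptor of activated T cells, had 40.3 and 31.1 in the tumors and 107 and 71.8 in the glands. On the main probe set of each of these genes the knockout gland was brightest and the wild-type tumor dimmest. Second probe sets of Cd28 and Icos had the knockout tumor dimmest, at 23.5 and 11.4 against 24.6 and 23.9 in the wild-type tumor. Ctla4, an inhibitory receptor of activated and regulatory T cells, had 22.3 and 15.7 in the tumors, against 62.6 and 17.9 in the glands. Only its knockout gland signal stood above the rest, and its log2 difference between the glands was 0.99. All its signals were low, and the value was 1.75 with an offset of 1 and 0.31 with an offset at the median signal.

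Of the cytokine and homing receptors, Il7r had the largest difference between the glands. Il7r encodes the receptor chain through which interleukin 7 keeps naive and memory T cells alive, and its signals were 168 and 212 in the knockout and wild-type tumor, against 742 and 295 in the knockout and wild-type gland. The knockout gland was 2.39-fold above the wild-type gland, which in turn lay closer to the tumors. A second Il7r probe set had 31.4 and 30.7 in the tumors, against 214 and 98.6 in the glands. It gave 0.94 between the glands, the same direction and just inside 2-fold. Il2rb, the beta chain shared by the receptors of interleukins 2 and 15, had 36.3 and 37.4 in the tumors, against 152 and 111 in the glands. Its second probe set read 15.0 and 20.0 in the tumors, against 126 and 16.8 in the glands, so the difference between the glands was 1.80 there and 0.38 on the main probe set. Il2ra, the alpha chain carried by regulatory and activated T cells, had no signal above 45.7 on any array. Ccr7, the receptor that guides naive T cells into lymph nodes, had 30.0 and 40.1 in the tumors, against 223 and 182 in the glands. It was 4.37-fold lower in tumor in the knockout and 3.11-fold lower in the wild type.

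The 2 measured transcription factors were dim on all arrays. Foxp3, which defines regulatory T cells, had signals of 8.40 and 8.70 in the knockout and wild-type tumor, and 46.1 and 27.5 in the knockout and wild-type gland. Tbx21, which encodes T-bet of type 1 helper T cells and NK cells, had 24.9 and 24.7 in the tumors and 87.7 and 101 in the glands. It was the single gene with a lower signal in the knockout gland, by -0.16. That size was within the 0.21 of the probe set gauge, which came from brighter genes.

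Cytotoxic genes had the smallest median difference between tumor and gland of the 7 role groups, -0.88 in the knockout and -0.52 in the wild type, and among them Gzmb ran the other way. Gzmb encodes granzyme B, a protease that triggers death of the target cell, and had signals of 115 and 146 in the knockout and wild-type tumor, against 71.6 and 34.4 in the knockout and wild-type gland. Both tumors lay above both glands, 1.44-fold in the knockout and 2.80-fold in the wild type. All 4 Gzmb signals were below 168. Gzma, which encodes a granzyme of other specificity, had 96.3 and 74.2 in the tumors, against 212 and 132 in the glands. Prf1, the pore-forming protein that admits granzymes, had 35.3 and 47.5 in the tumors and 69.9 and 49.3 in the glands. The wild-type tumor and wild-type gland signals of Prf1 were nearly equal, at a log2 difference of -0.03. A second Prf1 probe set differed by -0.93 in the same comparison.

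The remaining genes of this group belong to NK cells and cytotoxic T cells. Nkg7, a granule membrane protein, had 130 and 103 in the tumors, against 403 and 324 in the glands, and was lower in tumor by about the same amount in both genotypes (-1.45 and -1.44). Klrd1, which encodes CD94 of the inhibitory NK receptors, had 84.1 and 67.1 in the tumors, against 319 and 178 in the glands. Klrk1, the activating receptor NKG2D, had 52.7 and 54.9 in the tumors, against 112 and 80.4 in the glands. Klrd1 and Nkg7 were lower in tumor in both genotypes, while Klrk1 was inside 2-fold. Ncr1, a receptor found mainly on NK cells, was below 168 on every array, with 7.70 and 12.4 in the tumors and 46.2 and 28.8 in the glands.

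Where a gene had several probe sets, they mostly gave the same direction in gland and did not in tumor. Of 10 genes with several, all signs were alike for 9 between the glands, with Cd247 the exception, and for 5 between the tumors. For tumor against gland they were alike for 9 genes in the knockout and 8 in the wild type. Over all 42 probe sets, 40 were positive between the glands and 2 negative, with 4 higher. The sizes agreed less well than the signs. The second probe set of Cd28 differed by 0.98 between the glands against 0.15 on the main one, and that of Zap70 by 0.96 against 0.25.

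Several of these genes lie side by side in the genome, with no protein-coding gene between them. On chromosome 9 the neighbours were Cd3g, Cd3d and Cd3e, and on chromosome 6 they were Cd8b1 with Cd8a and Klrd1 with Klrk1. Cd28, Ctla4 and Icos adjoined on chromosome 1, and Cd5 and Cd6 on chromosome 19. On the main probe sets the neighbours Cd28 and Ctla4 had unlike differences in gland, 0.15 and 0.99. The second probe set of Cd28 had 0.98, so that contrast depended on the probe set. Promoters from 250 bases before to 50 bases after the annotated start were taken from RefSeq on build GRCm38.p6, where 28 promoters of 23 of the 33 genes matched. The core motifs of blood and T cell factors were searched in them on both strands, as AGGAAG for ETS factors, TGTGGT for RUNX factors, CTTTGA for TCF/LEF factors, AGATAA for GATA factors and TATAAA for the TATA box. Matches of different motifs overlapped in 0 cases in these promoters, and a match is a description of sequence and not a bound site.

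The ETS motif was in 17 of 28 promoters (60.7%), belonging to 15 of 23 genes, against 35.4% of all 32851 promoters. RUNX was in 35.7% against 16.8%, TCF/LEF in 21.4% against 16.0%, GATA in 7.14% against 11.2% and TATAAA in 10.7% against 13.6%. Promoters were not matched for base composition. The promoters of 4 genes follow, with matches in capitals, each given 5' to 3' on the strand of its gene. Cd3d and Cd3e are shown as adjoining receptor chains with the same order of arrays, Il7r as a gene with a large difference between the glands, and Gzmb as the gene that ran against the others.
Cd3d, chr9:44981536-44981835, plus strand: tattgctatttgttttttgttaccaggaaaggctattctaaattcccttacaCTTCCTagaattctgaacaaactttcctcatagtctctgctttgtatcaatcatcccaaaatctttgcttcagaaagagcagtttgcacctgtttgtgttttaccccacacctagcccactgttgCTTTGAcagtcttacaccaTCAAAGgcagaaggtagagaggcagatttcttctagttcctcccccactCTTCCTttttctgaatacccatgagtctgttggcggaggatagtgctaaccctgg
Cd3e, chr9:45009562-45009861, minus strand: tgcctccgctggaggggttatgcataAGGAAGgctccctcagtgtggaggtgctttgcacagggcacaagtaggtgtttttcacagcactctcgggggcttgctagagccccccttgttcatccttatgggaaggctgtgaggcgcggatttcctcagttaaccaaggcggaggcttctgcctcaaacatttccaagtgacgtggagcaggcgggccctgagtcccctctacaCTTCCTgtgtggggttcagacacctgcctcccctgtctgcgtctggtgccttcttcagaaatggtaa
Il7r, chr15:9529827-9530126, minus strand: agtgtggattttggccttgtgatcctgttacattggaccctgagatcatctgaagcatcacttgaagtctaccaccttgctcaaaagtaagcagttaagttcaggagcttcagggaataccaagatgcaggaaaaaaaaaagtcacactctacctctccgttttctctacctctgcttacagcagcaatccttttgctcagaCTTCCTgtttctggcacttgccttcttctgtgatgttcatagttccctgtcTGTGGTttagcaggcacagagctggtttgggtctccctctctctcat
Gzmb, chr14:56262285-56262584, minus strand: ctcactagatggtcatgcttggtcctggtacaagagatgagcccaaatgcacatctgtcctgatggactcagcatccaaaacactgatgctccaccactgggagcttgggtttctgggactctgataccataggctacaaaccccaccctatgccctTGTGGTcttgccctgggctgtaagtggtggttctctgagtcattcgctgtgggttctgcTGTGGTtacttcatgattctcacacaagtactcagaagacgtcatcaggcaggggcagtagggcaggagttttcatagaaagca
Cd3d held the ETS motif at -198 and -5 and the TCF/LEF motif at -73 and -54, counted to the first base of the match from the start site. In Cd3e the ETS motif was at -224 and -17. Il7r held an ETS match at -48 and a RUNX match at 4, and Gzmb held RUNX matches at -93 and -34 and no ETS match in this window.

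Other genes of T cell receptor signalling leaned the same way in gland. Of 20 further measured genes of T cell receptor signalling, 18 were positive between the glands, with a median of 0.52 and 1 higher. The higher gene was Ptpn6, a phosphatase that restrains the pathway, at 1354 in knockout and 640 in wild type. Shares over all named genes were 55.8% positive and 1.19% higher, and in the members' brightness range 71.3% and 3.29%. The list's gland median was 0.29 with arrays at a common median and 0.36 after quantile normalization. Ptprc, the phosphatase CD45 of all white blood cells, had 1309 and 1589 in the knockout and wild-type tumor, against 3053 and 1881 in the knockout and wild-type gland. In tumor against gland, 12 of the 20 were lower in the knockout and 5 in the wild type, with medians of -1.13 and -0.41. Over all named genes 18.6% and 15.8% were lower, and in the members' brightness range 29.2% and 24.9%. Prkcq, the protein kinase C of the T cell synapse, had 75.5 and 25.5 in the tumors, against 349 and 270 in the glands. Sla, an adaptor also made by myeloid cells, ran the other way in wild type, at 595 in tumor and 219 in gland. Between the tumors none of the 20 was higher or lower and the median was -0.02.

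Of 19 further transcription factors of T and NK cells, 16 were positive between the glands, with a median of 0.40 and 2 higher. Over all named genes 55.8% were positive and 1.19% higher, and in the members' brightness range 71.3% and 3.29%. The list's gland median was 0.17 with arrays at a common median and 0.14 after quantile normalization. In tumor against gland the list split, with 2 higher and 7 lower in the knockout and 4 of each in the wild type. Shares over all named genes were 9.59% higher and 18.6% lower in the knockout, and 10.1% and 15.8% in the wild type. The list's knockout median was -0.30, but 0.03 with arrays at a common median and 0.19 after quantile normalization. Satb1, a chromatin organiser of T cells, had 50.0 and 34.7 in the knockout and wild-type tumor, against 591 and 336 in the glands. Klf2, which keeps naive T cells circulating and is also made by endothelium, had 118 and 120 in the tumors, against 1392 and 904 in the glands. Id2, an inhibitor of helix-loop-helix factors made by many cell types, was higher in tumor, at 3450 and 3713 against 804 and 832.

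Among 22 further NK receptor and effector genes, 15 were positive between the glands, with a median of 0.25 and only the chemokine Ccl5 higher, at 1507 in knockout and 652 in wild type. In tumors Ccl5 had 669 in knockout and 548 in wild type. Of these genes, 19 were below 168 on both gland arrays, so this list says little about NK cells. Its counts stand beside 55.8% of all named genes positive between the glands and 1.19% higher. In the members' brightness range these shares were 71.3% and 3.29%. The list's gland median was 0.02 with arrays at a common median and 0.07 after quantile normalization. Of 20 further activation and checkpoint genes, 17 were positive between the glands with none past 2-fold and a median of 0.43. That median was 0.20 both with arrays at a common median and after quantile normalization. In tumor against gland this list had 2 genes higher and 5 lower in the knockout, with 14 of 20 negative. In the wild type 2 were higher and 4 lower, with 13 negative. Of all named genes 59.7% were negative in the knockout and 58.0% in the wild type. The list's knockout median was -0.30, but 0.03 with arrays at a common median and 0.04 after quantile normalization. Tnfrsf4, the costimulatory receptor OX40, was lower, at 107 and 59.7 in the tumors against 322 and 193 in the glands. The higher genes in both genotypes were Cd44 and Havcr2, which other cells also make. Cd44, an adhesion receptor of activated T cells and of epithelium, had 3671 and 3733 in the tumors, against 393 and 217 in the glands. Havcr2, the inhibitory receptor Tim-3 that myeloid cells carry too, had 126 in the knockout tumor and 252 in the wild-type tumor, against 30.1 and 14.4 in the glands.

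Receptors that direct lymphocyte traffic showed the gland difference most clearly of the 6 pathway lists by median. Of 14 measured, 13 were positive between the glands, with a median of 0.65 and 2 higher. Over all named genes 55.8% were positive and 1.19% higher. The list's gland median was 0.42 both with arrays at a common median and after quantile normalization. In tumor against gland 7 of the 14 were lower in each genotype, with 1 higher in the knockout and 2 in the wild type. Shares of all named genes that were lower there were 18.6% in the knockout and 15.8% in the wild type. S1pr1, the receptor by which lymphocytes leave lymph nodes, had 99.5 and 107 in the knockout and wild-type tumor, against 654 and 322 in the glands. Cxcr5, which guides B cells and follicular helper T cells into follicles, had 195 in the knockout gland and 68.8 in the wild-type gland. Cxcr5 is counted in the B cell list as well. Cxcr4, made by many cell types, had 525 and 800 in the tumors, against 418 and 202 in the glands. Cx3cr1, a receptor of monocytes and cytotoxic lymphocytes, was higher in tumor, at 361 and 499 against 72.6 and 51.2.

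Genes that attract T cells or line the vessels they enter by had a different pattern between the tumors. Of 15 measured, 13 were positive between knockout and wild type in each tissue, with medians of 0.46 in tumor and 0.46 in gland. Over all named genes 51.0% were positive in tumor and 55.8% in gland, and in the members' brightness range 54.1% and 71.3%. With arrays at a common median the list's medians were 0.44 in tumor and 0.23 in gland. After quantile normalization these medians were 0.51 and 0.23. Glycam1, a ligand of L-selectin in high endothelial venules of lymph nodes and also a milk protein, had 477 in the knockout tumor and 13.3 in the wild-type tumor, against 4514 and 1091 in the knockout and wild-type gland. Ltb, a lymphotoxin made by lymphocytes that organises lymphoid tissue, had 390 and 166 in the tumors, against 2021 and 1215 in the glands. Both were higher in the knockout tumor than in the wild-type tumor, where no member of the T and NK set was. Cxcl10, a chemokine for activated T cells induced by interferon, had 854 and 428 in the tumors, against 168 and 86.3 in the glands. Il7, the ligand of Il7r, had 525 in the knockout tumor and 286 in the wild-type tumor, against 113 and 88 in the glands. Madcam1 and Chst4, further genes of high endothelial venules, were at or below 65.6 on every array.

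Markers of other cell types differed between the same arrays, and B cell genes differed more than T cell genes. Of 13 measured B cell genes, 11 were higher in the knockout gland, with a median of 1.41, and their summed signal was 2397 and 2014 in the knockout and wild-type tumor, against 9082 and 3363 in the knockout and wild-type gland. Among them Cd22 had 846 in the knockout gland and 290 in the wild-type gland. The defining B cell genes Cd79a and Ms4a1 were close to background in tumor, at 9.20 and 17.3 in the knockout and 2.50 and 7.60 in the wild type. Of the 13 genes, 9 were below 168 on both tumor arrays. Others were bright in the knockout and wild-type tumor, with Ighm at 641 and 575, Cd72 at 611 and 630 and Blnk at 733 and 567. Between the tumors Spib alone of the 13 was higher, at 216 in the knockout and 27.6 in the wild type, against 1.85% of all named genes. Of 10 genes of all leukocytes, 10 were positive between the glands, with a median of 0.78, and their summed signal was 9502 and 10771 in the tumors against 17339 and 10813 in the glands. Macrophage and myeloid genes had a median of -0.37 between the tumors and 0.33 between the glands, and in tumor against gland 2 of 13 were higher and 4 lower in the knockout (median 0.05), with 7 higher and 3 lower in the wild type (median 1.01). The knockout median was -0.06 after quantile normalization. The part that these cells, or lymph node tissue in the sampled gland, had in the T cell differences was not tested.

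Of the lists, adipocyte genes had the largest tumor-to-gland difference by median. The 5 measured adipocyte genes were all lower in tumor, with medians of -4.85 in the knockout and -4.48 in the wild type, and their summed signal was 2695 and 3822 in the tumors against 32833 and 34968 in the glands. The 7 epithelial genes had medians of 1.16 and 0.74, with summed signals of 51081 and 45329 in the tumors and 21527 and 25604 in the glands. Endothelial genes had medians of -1.90 and -1.29, close to those of the T and NK set. Of 7 mast cell and basophil genes, 6 were lower in tumor in the knockout and 4 in the wild type, among them Cpa3, a mast cell protease, at 26.2 and 19.0 in the tumors against 688 and 503 in the glands. Kit, a receptor that epithelium also makes, went the other way, at 3211 and 1953 in the tumors against 1311 and 1213 in the glands. The part of this change of tissue in the lower T cell signals of tumors was not tested. Between the glands, adipocyte and epithelial medians were -0.12 and -0.20. The median of 11 control genes was -0.01 there, or -0.24 with arrays at a common median and 0.03 after quantile normalization. In tumor against gland the control medians were 0.44 in the knockout and 0.25 in the wild type. A common median made these 0.76 and 0.38, and quantile normalization 0.11 and 0.06. Actb was higher in tumor, by 1.38 in the knockout and 1.47 in the wild type, and Gapdh differed by 0.34 and 0.57. Sdha was lower in the wild type, by -1.07.

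**Figure D4:**
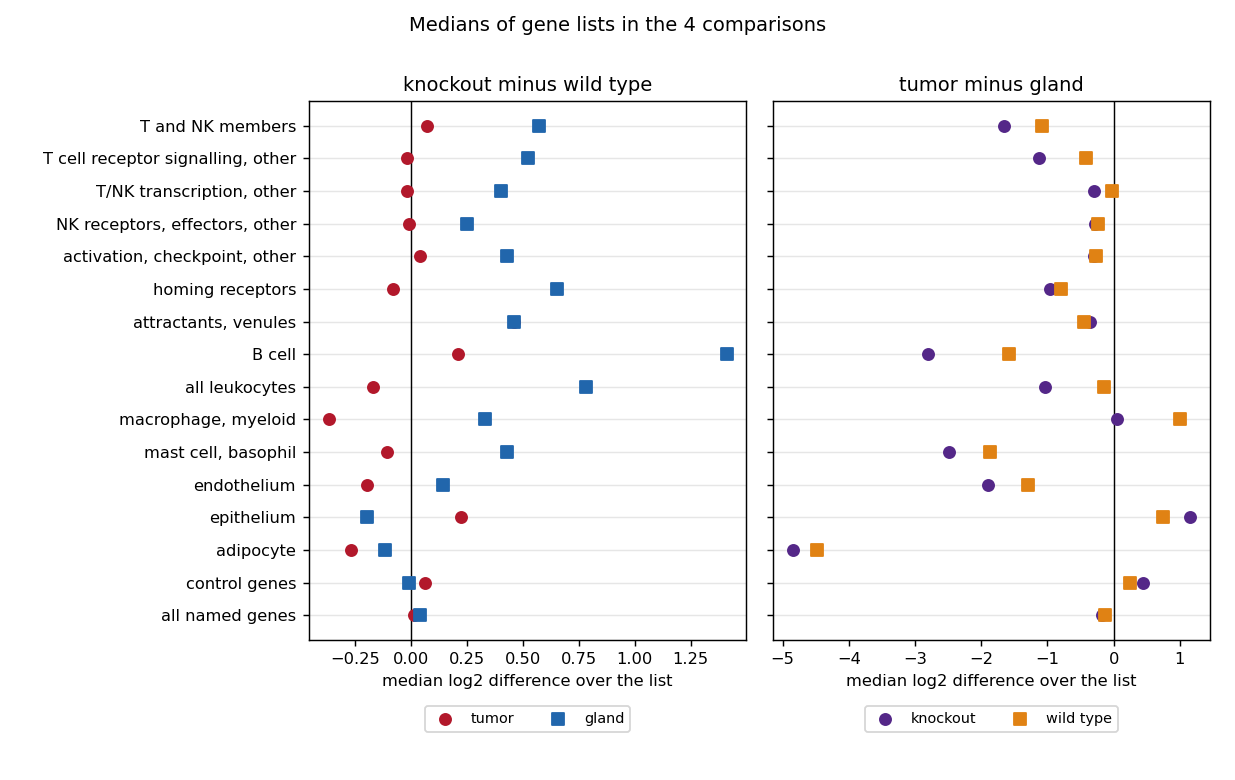
Median log2 difference over the T and NK set, all named genes and each other gene list except the thymocyte list. The left panel gives knockout minus wild type in tumor (circles) and gland (squares). The right panel gives tumor minus gland in the knockout (circles) and the wild type (squares). Between the glands the T and NK set (0.57) lies below the B cell list (1.41), and in tumor against gland the adipocyte list lies lowest.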

How the data were processed

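RNA pools of 5 mice per group were measured on 4 arrays, 1 per group. The deposited values are intensity values on a linear scale, 1 signal for each of 22690 probe sets, and each array had a mean of 500 after its lowest and highest 2% of probe sets were left out. The software behind these signals was not given in the sources used here. Biotin labelling followed the manufacturer's protocol, per the labels' protocols.

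Probe sets were named by the platform annotation, with symbols updated through gene identifiers for 20364 of them. Of all probe sets 20393 had 1 symbol, 691 had several and were not used, and 1606 were unnamed. For each of the 12394 genes the probe set brightest on average over the arrays was used. Values were used as log2(signal + 27.3), the offset being the lower quartile of all values, with a threshold of 2-fold and no floor on signal. With 1 array per group there was no test and no p-value. Counts and medians of the T and NK genes stand beside those of all named genes. They also stand beside genes of like mean signal, a choice made after the values were seen.

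The members and gene lists were chosen with earlier results of these data known. All members are named. Of other lists, up to 4 genes per comparison with the largest difference are named, among those that reached 168, the median of all values, on 1 array, with Glycam1, Ptprc, Actb and Gapdh added. Ncr1, Madcam1, Chst4, and the values of a named gene in comparisons where it was not among the largest, were chosen after their values were seen. Thymocyte genes other than Cd1d1 were below 168, and the list median was 0.01 in gland and in tumor between the genotypes. Alternatives were other offsets, scalings, probe set choices, floors and thresholds. The procedure was tested on simulated data. Python 3.11.15, numpy 2.4.6, pandas 2.3.3 and matplotlib 3.10.9 were used.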

Additional observations from a re-analysis of the deposited data

Results flagged for a closer look

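Cd8a, Il7r and Rhoh had genotype differences of opposite sign in tumor and gland, with the gland difference past 2-fold. For Cd8a the log2 difference of knockout minus wild type was -0.35 in tumor and 1.3 in gland. For Il7r it was -0.29 in tumor and 1.26 in gland, and for Rhoh -0.42 in tumor and 1.2 in gland. Whether the difference in tumor differs from that in gland was not tested, since each group was 1 array. The second probe sets of Cd8a and Il7r gave 0.17 and 0.02 in tumor, so the negative sign there was not shared by all probe sets of these genes. On the main probe sets, tumor signals of Cd8a and Rhoh were at or below 62.9, and on the second probe set of Cd8a they were 66.2 in the knockout and 55.9 in the wild type.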

How the results depend on the processing

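No member count or median reversed under any alternative run. Of 107 such values, 88 stayed within the limits set for the main value and 19 moved. The offset mattered most. With an offset of 1, 7 genes were higher in the knockout gland, and 2 were higher and 1 lower in the knockout tumor. With an offset at the median of all values, the gland median was 0.33 with 0 genes higher. The same offset gave medians of -0.85 and -0.43 for tumor against gland in knockout and wild type, with 8 and 2 genes lower and 0 higher in wild type. With arrays at a common median the gland median was 0.35, where that of all genes moved to -0.19. Quantile normalization put 1 gene, Gzmb at 1.01, higher in the knockout tumor than in the knockout gland. A floor of 168 on mean signal left 7 genes, of which 1 was higher in the knockout gland, and 7 and 6 were lower in tumor in knockout and wild type, with 0 higher in wild type. Counting only genes that reached 168 on the brighter array gave 8 lower and 0 higher in wild-type tumor. At 1.5-fold, 15 genes were higher in the knockout gland. Averaging probe sets brought Cd8a to 0.97 in gland, but 3 genes were still higher there because another gene entered. A common median brought Rhoh to 0.97 and left 2 genes higher.

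Signs of single genes were the same under all offsets, scalings and probe set choices run for 29 of 30 genes in gland (not Cd28), 25 in tumor, 28 for tumor against gland in the knockout and 25 in the wild type. No paired analysis was possible because each group was 1 array. Dim signals, most of all in tumor, limit the sizes.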

Other observations

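Some further values belong to genes of the lists used above. Spib, a transcription factor of B cells and plasmacytoid dendritic cells, had 216 in the knockout tumor and 27.6 in the wild-type tumor, while Cd79a and Ms4a1 were close to background in both. Bcl11b, a factor of T cell commitment that epithelium also makes, had 213 in the knockout tumor and 95 in the wild-type tumor, against 62.0 in the knockout gland and 2.70 in the wild-type gland, so both tumors lay above both glands. Marco, a scavenger receptor of macrophages in lymphoid tissue, had 423 in the knockout gland and 64.0 in the wild-type gland. Cd1d1, which presents lipids to NKT cells, had 348 and 322 in the knockout and wild-type tumor, against 3821 and 4383 in the glands.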
